A study of Mus musculus with 4 samples.

Results

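The genes described here encode enzymes that crosslink the extracellular matrix or modify collagen before it is secreted: the lysyl oxidases Lox, Loxl1, Loxl2 and Loxl3, the transglutaminase Tgm2, the lysyl hydroxylases Plod1, Plod2 and Plod3, and the collagen chaperone Serpinh1. They were chosen by name, 9 of the 23005 genes and unnamed transcripts in the deposited table, and all 9 were found. Of several entries for a gene, the one with the highest mean over the libraries was taken. The unit is RPKM, reads divided by the length of the transcript and by the depth of the library, so levels of different genes can be set side by side.

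The RNA came from mouse embryonic fibroblasts (MEFs), which are cultured connective-tissue cells from embryos. The groups were cells labelled Mll1-/- given tumour necrosis factor alpha (TNF, 10 ng/ml) for 4 hr, cells labelled Mll1-/- given control solution, Mll1+/+ cells given TNF and Mll1+/+ cells given control solution. Mll1, now named Kmt2a, encodes a histone methyltransferase. Each treatment was done 3 times and the cells were mixed before sequencing, so each group is 1 library, no replicate spread exists and no difference below was tested. All cells grew in the same medium with fetal bovine serum, and the labels give neither the allele behind Mll1-/- nor the number of embryos or clones behind each culture.

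A fibrillar collagen is built in steps. Inside the cell, lysyl hydroxylases add hydroxyl groups to lysines and the chaperone encoded by Serpinh1, also called Hsp47, holds the folded triple helix. Outside the cell, lysyl oxidases turn lysines and hydroxylysines into reactive aldehydes that crosslink collagen and elastin, and transglutaminase 2 joins glutamines to lysines in matrix proteins such as fibronectin. Fibroblasts are a main source of these enzymes.

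The library totals recovered from the RPKM values were 19306506 reads for labelled Mll1-/- with TNF, 20081869 for labelled Mll1-/- control, 27977248 for Mll1+/+ with TNF and 27728647 for Mll1+/+ control. Kmt2a itself had 1.66 RPKM with TNF and 2.02 in control in the libraries labelled Mll1-/-, against 2.11 and 1.85 in Mll1+/+. The control ratio was 1.09 (counting interval 0.985 to 1.21), so the level of the whole transcript does not separate the genotypes without TNF, and with TNF the ratio was 0.785 (0.705 to 0.874). A value for the whole transcript does not show where in the gene the reads fall, and the cause of this level was not tested. The libraries are therefore called by their labels throughout. Of the 9 fibroblast markers in the table, 8 reached 1 RPKM in each library labelled Mll1-/- and 6 in each Mll1+/+ library, where Pdgfra, Col3a1 and Dpt stayed below it, while macrophage and endothelial markers summed to between 0.172 and 0.897 RPKM in any library. The 5 neural markers summed to 91.8 and 104 RPKM in the libraries labelled Mll1-/- (TNF and control), against 14.1 and 14.4 in Mll1+/+, with 0 markers at 0 in the libraries labelled Mll1-/-, whereas Map2 was at 0 in Mll1+/+ with TNF and Gfap and Sox10 in Mll1+/+ control. The muscle markers, led by Acta2, summed to 194 and 183 RPKM against 89.9 and 101, and the 5 epithelial markers, nearly all of it Krt19, to 21.6 and 24.98 RPKM against 42.0 and 53.2. The chondrocyte and osteoblast markers summed to between 9.09 and 9.73 RPKM in every library. Among them Col2a1 was at 0 in both libraries labelled Mll1-/- and at 0.911 (TNF) and 0.956 RPKM (control) in Mll1+/+. The endothelial marker Cdh5 had 0.116 and 0.149 RPKM in the libraries labelled Mll1-/- (TNF and control), against 0.866 and 0.748 in Mll1+/+. The part of the neural, muscle and epithelial markers in the results below was not tested. In cultures sequenced whole, fewer cells that express a gene and less RNA per cell cannot be told apart.

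**Figure D1:**
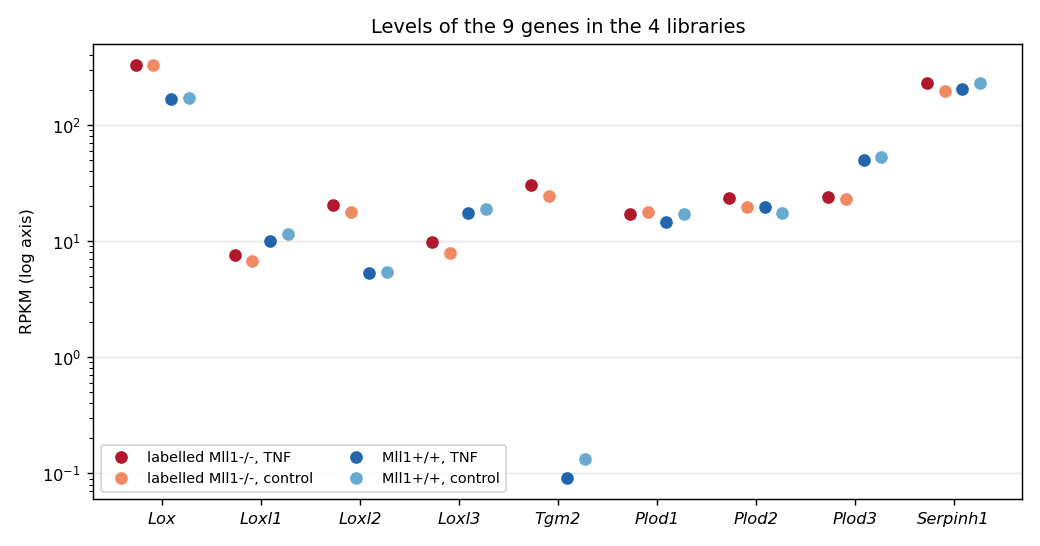
RPKM of each of the 9 genes in each library, on a log axis. Every point is 1 library. Lox and Serpinh1 are the most abundant in every library, and Tgm2 is the gene whose libraries lie farthest apart, at 24.3 to 30.1 RPKM in the libraries labelled Mll1-/- and at 0.0906 to 0.132 RPKM in Mll1+/+.

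Lox, which encodes the founding member of the lysyl oxidase family and crosslinks collagen and elastin, was the most abundant crosslinking enzyme transcript. It stood at 326 RPKM with TNF and 330.5 in control in the libraries labelled Mll1-/-, against 168 with TNF and 170.2 in control in Mll1+/+. Both libraries labelled Mll1-/- were higher than both Mll1+/+ libraries, and TNF and control libraries of a genotype lay close together. The libraries of a genotype had different treatments and are not replicates. How many of all genes lack overlap in this way was not counted, so it is given here and below as description only. The level of Lox exceeded that of 98.3% of the named genes compared in the labelled Mll1-/- control and 96.0% in the Mll1+/+ control. Reads per library total were 1.94-fold higher in the labelled Mll1-/- control than in the Mll1+/+ control (counting interval 1.90 to 1.98). A counting interval is the 95% exact interval that counting error alone gives.

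A size rule was used in place of a test: a gene was counted as higher or lower when its log2 ratio, computed on log2(RPKM + 0.5), was 1 or more in size. Near the floor this scale makes changes look smaller than they are. In control cells Lox, at a log2 ratio of 0.96, was just under that limit. It passed under 3 other scalings, at 1.03 with median-ratio scaling, 1.06 with upper-quartile scaling and 1.25 with the 20 most abundant genes left out. With a trend with transcript length removed it was 0.90 and did not pass. With TNF the Lox value was 0.95, and of these alternatives only leaving out the 20 most abundant genes took it past the limit, at 1.06.

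Loxl2, an oxidase that also acts on collagen IV of basement membranes, had a larger ratio from a lower level. It had 20.3 RPKM with TNF and 17.7 in control in the libraries labelled Mll1-/-, against 5.31 and 5.43 in Mll1+/+. The groups did not overlap. The ratio was 3.26-fold in control cells (counting interval 2.995 to 3.55; log2 1.62) and 3.82-fold with TNF (3.52 to 4.16; log2 1.84).

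Loxl3, which in mice is needed for the palate and the spine, lay the other way. It had 9.89 RPKM with TNF and 7.85 in control in the libraries labelled Mll1-/-, against 17.3 and 19.0 in Mll1+/+. Both libraries labelled Mll1-/- were below both Mll1+/+ libraries. In control cells the ratio was 0.413 (counting interval 0.377 to 0.451), a log2 ratio of -1.23 that passed the size rule. With TNF the ratio was 0.572 (0.526 to 0.622), a log2 ratio of -0.78 that did not. The gene overlaps Htra2 on the opposite strand in the GENCODE annotation, and the labels mention no strand, so reads of these genes cannot be separated with certainty.

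Loxl1, which in mice is needed to maintain elastic fibres, was the least abundant of the 4 in the libraries labelled Mll1-/-. It had 7.53 RPKM with TNF and 6.67 in control in the libraries labelled Mll1-/-, against 10.1 and 11.5 in Mll1+/+. Again the groups did not overlap, but the log2 ratios of -0.75 in control cells and -0.40 with TNF were both within the size rule. The counting interval of the control ratio ran from 0.516 to 0.645.

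The makeup of the lysyl oxidase transcripts differed between the genotypes. Counting Loxl4 as well, which is not among the 9, the family summed to 410 RPKM with TNF and 408 in control in the libraries labelled Mll1-/-, against 249 and 248 in Mll1+/+. Lox made up 79.6% and 81.1% of that sum in the libraries labelled Mll1-/-, against 67.5% and 68.6% in Mll1+/+. Loxl2 took 4.96% and 4.34% against 2.13% and 2.19%. Loxl3 took 2.41% and 1.93% against 6.93% and 7.67%. Loxl2 was thus above Loxl3 in both libraries labelled Mll1-/- and below it in both Mll1+/+ libraries. Loxl4 was similar in all libraries, at 46.1 RPKM with TNF and 44.9 in control in the libraries labelled Mll1-/-, against 48.4 and 41.9 in Mll1+/+.

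**Figure D2:**
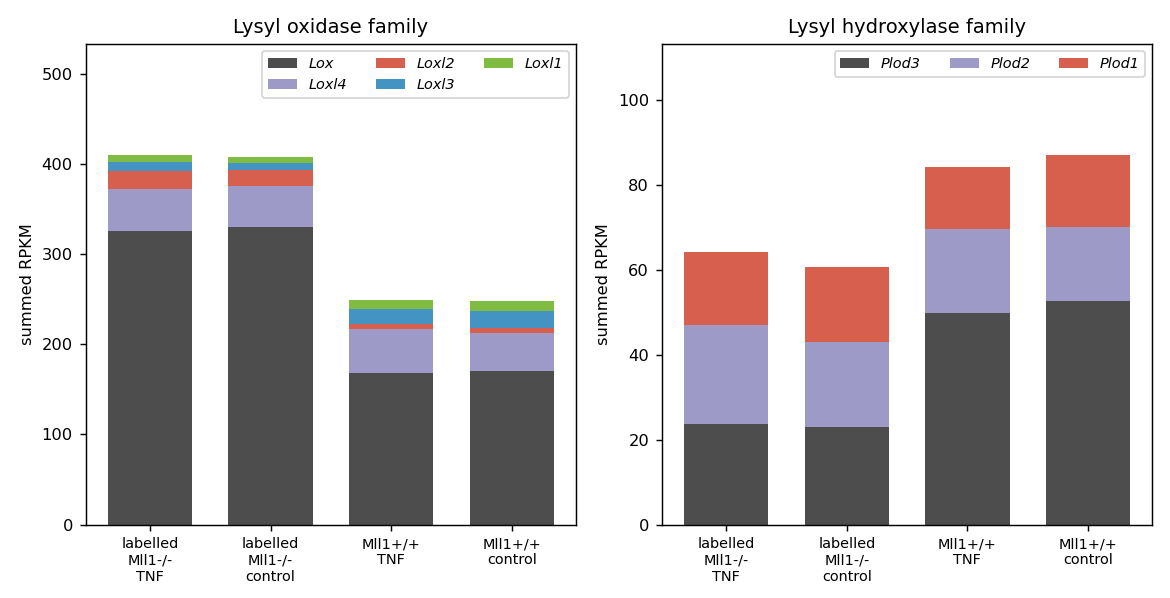
Summed RPKM of the lysyl oxidase family (left) and of the lysyl hydroxylase family (right), with 1 bar for each library and 1 colour for each gene. The lysyl oxidase bars are taller in the libraries labelled Mll1-/- (410 and 408 RPKM) than in Mll1+/+ (249 and 248), and the lysyl hydroxylase bars are shorter (64.1 and 60.5 against 84.1 and 87.0).

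Tgm2, the tissue transglutaminase, had the widest genotype difference of the 9 genes. It had 30.1 RPKM with TNF (2063 reads) and 24.3 RPKM in control (1730 reads) in the libraries labelled Mll1-/-. In Mll1+/+ it had 0.0906 RPKM with TNF (9 reads) and 0.132 RPKM in control (13 reads). The transcript was thus near the detection limit in both Mll1+/+ libraries and above the median gene in both libraries labelled Mll1-/-, where it exceeded 76.4% and 72.0% of the named genes compared. From reads, the control ratio was 184-fold (counting interval 107 to 346) and the ratio with TNF was 332-fold (175 to 727). The read-based interval of their log2 difference, -0.38 to 2.08, includes 0, so the ratios cannot be told apart at this depth. On the log2(RPKM + 0.5) scale the differences were 5.29 and 5.70, which ranked 11 and 9 from the top among 14386 genes. With a pseudocount of 0.1 RPKM they were 6.71 and 7.31. Of the other transglutaminase genes in the table, only Tgm4, which is best known from the prostate, reached 1 RPKM, at 4.04 RPKM with TNF and 4.88 in control in the libraries labelled Mll1-/-, against 1.95 and 2.27 in Mll1+/+.

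The 3 genes whose profile over the 4 libraries lay nearest to that of Tgm2 were Ifi202b, Mlkl and F11r, by the Euclidean distance between centred log2(RPKM + 0.5) values among 9575 genes. The distances were 0.23, 0.24 and 0.31 on the log2 scale. Ifi202b encodes an interferon-inducible protein and had 24.8 and 24.7 RPKM in the libraries labelled Mll1-/- (TNF and control), against 0.0398 and 0.0402 in Mll1+/+. Mlkl, the effector of necroptosis, had 20.2 and 17.6 RPKM and was listed at 0 in both Mll1+/+ libraries. F11r, a tight junction adhesion molecule, had 27.8 and 26.0 RPKM, against 0.0288 and 0 in Mll1+/+. For Loxl3, which had the lowest genotype ratio of the 9 in control cells, the nearest genes were Aldh2, Trappc6a and Ebp, at distances of 0.031, 0.043 and 0.045. Aldh2, the mitochondrial aldehyde dehydrogenase, had 58.7 and 47.6 RPKM in the libraries labelled Mll1-/-, against 103 and 111 in Mll1+/+.

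Plod3 encodes lysyl hydroxylase 3, which also attaches sugars to hydroxylysines. It had 23.7 RPKM with TNF and 23.0 in control in the libraries labelled Mll1-/-, against 49.8 and 52.7 in Mll1+/+. The groups did not overlap. The ratio was 0.437 in control cells (counting interval 0.412 to 0.463; log2 -1.18) and 0.477 with TNF (0.449 to 0.505; log2 -1.05). Both passed the size rule, although when the scaling leaves out the 20 most abundant genes they were -0.88 and -0.94 and did not. Under that scaling the control value of Loxl3 was -0.94. Plod3 overlaps Znhit1 on the opposite strand in GENCODE, so its reads carry the same doubt as those of Loxl3. The same holds for Tgm2, which overlaps Rprd1b and Gm20412, and for Lox, Loxl2 and Plod2, which overlap annotated noncoding or unclassified genes on the opposite strand.

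Plod1 encodes lysyl hydroxylase 1, which acts on the helical part of collagen, and was within the size rule in both pairs. It had 17.1 RPKM with TNF and 17.7 in control in the libraries labelled Mll1-/-, against 14.5 and 16.9 in Mll1+/+. The groups did not overlap here either, although the ratios were small. The control ratio was 1.04 with a counting interval of 0.966 to 1.13, which includes 1 and leaves out a 2-fold difference. With TNF the ratio was 1.18 (1.09 to 1.28).

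Plod2 encodes lysyl hydroxylase 2, which acts on the telopeptides at the ends of collagen chains. It had 23.3 RPKM with TNF and 19.8 in control in the libraries labelled Mll1-/-, against 19.7 and 17.3 in Mll1+/+. The TNF library was the higher of each pair. Both libraries labelled Mll1-/- were again above both Mll1+/+ libraries, by a narrow margin. The genotype ratios were 1.14 in control cells (counting interval 1.07 to 1.23) and 1.18 with TNF (1.10 to 1.26).

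The lysyl hydroxylase transcripts together summed to 64.1 RPKM with TNF and 60.5 in control in the libraries labelled Mll1-/-, against 84.1 and 87.0 in Mll1+/+. Plod3 made up 37.0% and 38.1% of the sum in the libraries labelled Mll1-/-, against 59.2% and 60.6% in Mll1+/+. In the libraries labelled Mll1-/- the 3 genes all lay between 17.1 and 23.7 RPKM, whereas in Mll1+/+ Plod3 stood well above the other two.

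The table holds 2 entries for Plod2, which differ by 63 bases. In GENCODE these are a coding exon, number 14 of 20 in the longer transcript, that the shorter transcript lacks. It lies at chr9:92601985-92602047 on the plus strand (GRCm38) and spans 21 codons, so that skipping it keeps the reading frame. The longer form is the one known for telopeptide hydroxylation. The exon is shown because the reads that separate the entries fall on it, and no part of it is in capitals.
Plod2 exon 14: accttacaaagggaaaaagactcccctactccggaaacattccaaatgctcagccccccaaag

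The longer entry held 32 reads more than the shorter with TNF and 42 more in control in the libraries labelled Mll1-/-, against 43 and 32 more in Mll1+/+. As a share of the longer entry's reads this was 1.92% with TNF (exact binomial 95% interval 1.31 to 2.69) and 2.84% in control (2.05 to 3.82) in the libraries labelled Mll1-/-. In Mll1+/+ it was 2.09% with TNF (1.52 to 2.81) and 1.79% in control (1.23 to 2.52). Per base, the extra reads were between 1.06 and 1.69 times as dense as those of the shorter entry. The exon was thus covered in every library. The share was highest in the labelled Mll1-/- control and lowest in the Mll1+/+ control, and the intervals of all 4 libraries overlap. Overlap of intervals does not decide whether shares differ, and a difference in the use of the exon was not tested. Reads that only touch the exon's edges may be included, because the way reads were assigned to entries is not given here.

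Serpinh1, the procollagen chaperone gene, was the other abundant transcript of the 9. It had 230.1 RPKM with TNF and 197 in control in the libraries labelled Mll1-/-, against 205 and 228 in Mll1+/+. The groups overlapped, since the highest and the lowest value were both from libraries labelled Mll1-/-. The ratio was 0.862 in control cells (counting interval 0.839 to 0.885) and 1.12 with TNF (1.09 to 1.15). The log2 value in control cells, -0.21, became 0.09 with the 20 most abundant genes left out, so its direction rests on the scaling. The 3 entries of Serpinh1 shared nearly all their reads, with 9898 to 9950 reads in the labelled Mll1-/- TNF library.

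Promoter sequence from RefSeq (GRCm38.p6) was at hand for 3 of the 9 genes, Plod3, Plod1 and Serpinh1. It is shown because Plod3 passed the size rule between the genotypes whereas its paralog Plod1 did not. The Mll1 protein binds DNA that holds unmethylated CG through its CXXC domain. Neither binding nor methylation was measured here, and a link between these sequences and the genotype ratios was not tested. Tgm2, Loxl2 and Loxl3, which passed the size rule in control cells, had no such sequence at hand. Each line gives the 250 bases before the gene's start, 5′ to 3′ on the gene's strand, with every CG in capitals. The regions are chr5:136986769-136987018 on the plus strand for Plod3, chr4:147936777-147937026 on the minus strand for Plod1 and chr7:99353240-99353489 on the minus strand for Serpinh1.
Plod3: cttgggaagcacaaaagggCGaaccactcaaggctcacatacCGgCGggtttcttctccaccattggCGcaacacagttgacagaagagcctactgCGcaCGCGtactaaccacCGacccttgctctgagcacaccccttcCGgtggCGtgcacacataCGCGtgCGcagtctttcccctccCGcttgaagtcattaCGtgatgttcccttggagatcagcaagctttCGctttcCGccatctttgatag
Plod1: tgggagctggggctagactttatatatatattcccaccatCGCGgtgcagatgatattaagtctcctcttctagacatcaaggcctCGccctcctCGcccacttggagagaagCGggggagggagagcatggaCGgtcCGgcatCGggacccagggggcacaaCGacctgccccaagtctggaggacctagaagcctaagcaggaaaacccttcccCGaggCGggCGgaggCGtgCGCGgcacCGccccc
Serpinh1: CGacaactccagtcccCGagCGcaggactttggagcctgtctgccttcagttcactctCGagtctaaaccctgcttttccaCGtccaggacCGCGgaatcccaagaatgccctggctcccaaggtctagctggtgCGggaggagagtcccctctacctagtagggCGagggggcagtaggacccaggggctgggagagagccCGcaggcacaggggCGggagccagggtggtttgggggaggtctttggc

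The Plod3 window held 17 CG, the Plod1 window 16 and the Serpinh1 window 11, against a median of 6 over 32851 promoter windows of the same length. At least as many as in Plod3 were found in 23.5% of all windows, as many as in Plod1 in 25.4% and as many as in Serpinh1 in 35.6%. The GC box letters GGGCGG, which themselves hold a CG, were searched on both strands and found 0 times in the Plod3 window, 2 times in the Plod1 window and 1 time in the Serpinh1 window. At least 1 was found in 32.7% of all windows.

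Counted together, 4 of the 9 genes passed the size rule in control cells, with Tgm2 and Loxl2 higher and Loxl3 and Plod3 lower. Over all 14386 genes compared, 15.1% passed in either direction, 7.11% higher and 7.99% lower. The split over all genes rests on the scaling: 1023 were higher and 1150 lower as deposited, 1170 and 907 with upper-quartile scaling, 1529 and 621 when the 20 most abundant genes are left out, and 1196 and 703 with a trend with transcript length removed. With TNF, 3 of the 9 passed, Tgm2 and Loxl2 higher and Plod3 lower, against 11.2% of all genes in either direction, 6.71% higher and 4.5% lower. The median log2 ratio of the 9 was 0.06 in control cells and 0.23 with TNF, and over all genes it was -0.07 and -0.05. In control cells 5 of the 9 lay above 0 and 4 below, against 45.0% of all genes above 0. With TNF 6 of the 9 lay above 0, against 45.1% of all genes.

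**Figure D3:**
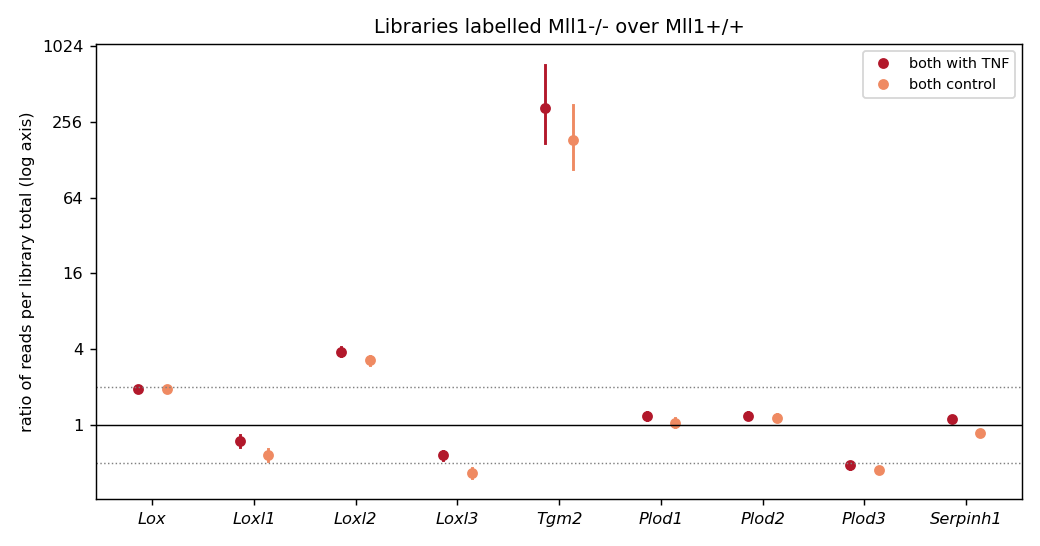
Ratio of reads per library total, labelled Mll1-/- over Mll1+/+, for each of the 9 genes on a log axis, with both libraries given TNF (left point) or control solution (right point). Bars are 95% counting intervals, the solid line marks a ratio of 1 and dotted lines a 2-fold difference. Tgm2 and Loxl2 lie above the dotted lines and Plod3 below them in both pairs, Loxl3 lies below in control cells, and the points of a gene lie on the same side of 1 except for Serpinh1.

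After 4 hr of TNF, the 9 genes had log2 ratios to control within the size rule in both genotypes. Of 5 genes compared from a short list of known TNF targets, 4 passed the size rule in the libraries labelled Mll1-/- and 5 in Mll1+/+. The one that did not was Tnfaip3, an inhibitor of NF-kB signalling, with a log2 ratio of 0.73. The NF-kB inhibitor gene Nfkbia had 54.3 RPKM with TNF and 21.8 in control in the libraries labelled Mll1-/-, and 66.4 and 16.4 RPKM in Mll1+/+. The chemokine gene Ccl2 had 752 and 255 RPKM in the libraries labelled Mll1-/-, and 1643 and 434 in Mll1+/+. In the TNF comparisons 0 of the 9 genes passed the size rule. Over all genes 0.848% passed in the libraries labelled Mll1-/- and 0.577% in Mll1+/+, so a count of 0 among 9 is near the background.

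In the libraries labelled Mll1-/- the log2 TNF ratios of the 9 genes ran from -0.05 for Plod1 to 0.32 for Loxl3, with a median of 0.19, against a median of 0.02 over all genes. The counting interval left out a ratio of 1 for 5 of the 9, and for 48.7% of all genes, so the count is near the background. Loxl3 was 1.26-fold higher with TNF (counting interval 1.13 to 1.40), Tgm2 1.24-fold (1.16 to 1.32), Plod2 1.17-fold (1.09 to 1.26), Serpinh1 1.17-fold (1.14 to 1.20) and Loxl2 1.15-fold (1.08 to 1.22). The log2 ratios of these 5 genes lay between 0.03 and 0.16 when the scaling leaves out the 20 most abundant genes, where the median over all genes was -0.13. With a trend with transcript length removed they lay between 0.18 for Serpinh1 and 0.40 for Loxl3, where the median over all genes was 0. Lox had a ratio of 0.987 (0.969 to 1.005). All of these lay between the log2 values -0.45 and 0.73 that hold the middle 95% of all genes.

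In Mll1+/+ cells 1 of the 9 genes had a log2 TNF ratio above 0, against 45.0% of all genes. It was Plod2, 1.14-fold higher with TNF (counting interval 1.07 to 1.22). The other 8 lay below 0, from -0.22 for Plod1 to -0.01 for Lox. With the 20 most abundant genes left out the value of Lox was 0.01. Plod1 had a ratio of 0.857 (0.796 to 0.923), Loxl1 0.871 (0.797 to 0.951), Serpinh1 0.8996 (0.878 to 0.921), Loxl3 0.909 (0.854 to 0.967) and Plod3 0.945 (0.907 to 0.984). For Lox the ratio was 0.99 (0.969 to 1.01). Tgm2, on 9 and 13 reads, had a ratio of 0.686 whose interval of 0.259 to 1.74 sets no direction. The interval left out a ratio of 1 for 6 of the 9, against 35.6% of all genes. Whether an interval leaves out 1 depends on the number of reads as well as on the ratio. The shares in both genotypes were not matched for abundance. The log2 TNF ratio of Plod2 in the libraries labelled Mll1-/-, 0.23, was 0.07 when the scaling leaves out the 20 most abundant genes, and upper-quartile scaling gave 0.15.

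**Figure D4:**
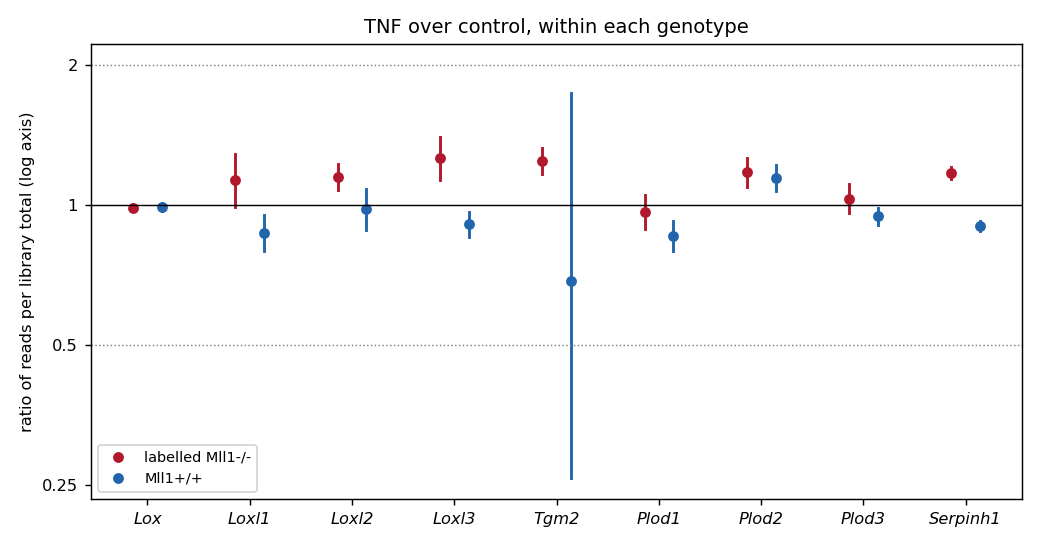
Ratio of reads per library total, TNF over control, for each of the 9 genes in the libraries labelled Mll1-/- (left point) and in Mll1+/+ (right point), on a log axis with 95% counting intervals. All points lie within the dotted lines at a 2-fold difference. Lox sits on 1 in both genotypes, Plod2 lies above 1 in both, and the wide bar of Tgm2 in Mll1+/+ comes from 9 and 13 reads.

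The log2 TNF ratio was higher in the libraries labelled Mll1-/- than in Mll1+/+ for 8 of the 9 genes, with a median difference of 0.22 against 0.03 over all genes, of which 53.2% lay above 0. With the 20 most abundant genes left out it was higher for 5 of the 9, against 32.8% of all genes, whose median was -0.15. With upper-quartile scaling it was higher for 7 of the 9, against 43.6% of all genes. With a trend with transcript length removed it was higher for 9 of the 9, against 49.2%. None of the 9 passed the size rule for this difference, against 1.18% of all genes. On log2(RPKM + 0.5) Loxl3 had the largest difference, 0.45, which from reads was 0.47 (counting interval 0.30 to 0.65). For Serpinh1 the difference was 0.38 (0.33 to 0.43 from reads), and for Tgm2 it was 0.40, with a read-based interval of -0.38 to 2.08 that includes 0. For Lox it was -0.0044 (-0.045 to 0.036 from reads). These differences use the labelled Mll1-/- control library, in which ratios also trend with transcript length. Among 20 equal bins of genes by length, the bin of Loxl3 had a median difference of -0.10 and that of Serpinh1 one of 0.08. With the trend removed the differences were 0.54 for Loxl3 and 0.29 for Serpinh1, and with the 20 most abundant genes left out they were 0.27 and 0.19.

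The other genes of collagen assembly were followed in lists taken from general knowledge, and their counts stand beside the 15.1% and 11.2% of all genes past the size rule in control cells and with TNF. The list counts use the values as deposited, with no other scaling and no length trend removed. In control cells, median-ratio scaling raised the median of all genes by 0.07, upper-quartile scaling by 0.10 and leaving out the 20 most abundant genes by 0.28. Of 8 genes for prolyl hydroxylation, which stabilises the triple helix, 1 was higher and 0 lower in both pairs, with medians of -0.14 in control cells and 0.08 with TNF. That gene was P4ha3, a catalytic subunit of prolyl 4-hydroxylase, at 10.5 RPKM with TNF and 10.2 in control in the libraries labelled Mll1-/-, against 0.0454 and 0.107 in Mll1+/+. Like Tgm2 it was near the floor in Mll1+/+. The more abundant subunit gene P4ha1 had 31.1 and 32.6 RPKM against 36.9 and 40.1, and P4hb, which encodes the shared beta subunit, 321 and 310.5 against 417 and 442. The prolyl 3-hydroxylase gene P3h2 had 7.37 and 9.39 RPKM against 6.85 and 8.04.

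Of 5 measured partners of the lysyl hydroxylases, 1 was higher and 0 lower in both pairs, with medians of -0.08 in control cells and 0.14 with TNF. It was Tmem38b, an ion channel gene of the endoplasmic reticulum whose loss disturbs lysine hydroxylation, at 5.52 and 4.75 RPKM in the libraries labelled Mll1-/- against 1.49 and 1.18 in Mll1+/+. Fkbp10, a chaperone that acts with lysyl hydroxylase 2, had 51.7 and 54.2 RPKM against 47.0 and 52.4. The collagen prolyl isomerase gene Ppib had 181 and 155 RPKM against 185 and 198, and P3h4, which binds lysyl hydroxylase 1, had 21.0 and 20.1 against 23.1 and 26.4.

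Of 11 genes for folding and export, 2 were higher and 0 lower in both pairs, with medians of 0.17 in control cells and 0.12 with TNF. Sec24d, a coat protein of the vesicles that carry procollagen, had 27.5 and 28.7 RPKM in the libraries labelled Mll1-/- against 10.2 and 11.1 in Mll1+/+. Creb3l1, a transcription factor for collagen export genes, had 1.93 and 2.42 RPKM against 0.219 and 0.284. Fkbp9 (51.6 and 51.2 against 77.3 and 79.1 RPKM) and Sec23a (8.85 and 8.73 against 12.7 and 12.1 RPKM) were lowest in the list and within the size rule.

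Of 5 measured genes for procollagen processing, 1 was higher and 2 lower in control cells, with a median of -0.81, and 1 was higher and 0 lower with TNF, with a median of -0.45. Bmp1, the protease that removes the C-propeptide of procollagen and also activates Lox, had 8.15 and 8.07 RPKM in the libraries labelled Mll1-/- against 15.9 and 16.9 in Mll1+/+. Its log2 ratio was -1.02 in control cells and -0.92 with TNF. The control value was just past the limit, so its place past the rule rests on the scaling. Pcolce2, an enhancer of that protease, had 35.8 and 29.9 RPKM against 63.2 and 68.5. Its log2 ratio in control cells was -1.18, about that of Plod3, which did not pass with the 20 most abundant genes left out. Adamts2, which removes the N-propeptide, lay the other way, at 2.77 and 2.85 RPKM against 0.0382 and 0.0482, on 8 and 10 reads in Mll1+/+. Adamts14, a related protease, had 4.44 and 3.02 RPKM against 3.02 and 2.38, a log2 ratio of 0.29 in control cells that was within the size rule. Lox and the gene of its activating protease thus had genotype ratios on opposite sides of 1.

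Of 8 measured substrates and scaffolds, 4 were higher and 1 lower in both pairs, with medians of 0.96 in control cells and 0.80 with TNF. Col3a1 had 23.5 and 28.1 RPKM in the libraries labelled Mll1-/- against 0.296 and 0.531 in Mll1+/+. Col1a2 had 170.1 and 198 RPKM against 25.9 and 32.2. Fbln5, which helps lysyl oxidases act on elastin, was the lower gene, at 1.13 and 1.08 RPKM against 6.13 and 7.35. Efemp2, which binds Lox, had 147 and 137 RPKM against 139 and 158.

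Of 3 measured genes for other crosslinking enzymes, 0 passed the size rule in either pair, with medians of 0.46 in control cells and 0.39 with TNF. They were Loxl4, Tgm4 and the peroxidasin gene Pxdn, whose product crosslinks collagen IV, at 23.4 and 20.2 RPKM against 17.8 and 14.5. Like Lox, Tgm4 was just under the limit in control cells, at a log2 ratio of 0.96, so the count of 0 there rests on the scaling. Lysyl oxidases need copper, and of 5 measured copper supply genes 0 were higher and 2 lower in control cells, with a median of -0.60, and 0 passed with TNF, with a median of -0.30. The copper chaperone gene Atox1 had 63.6 RPKM with TNF and 36.7 in control in the libraries labelled Mll1-/-, against 115 and 127 in Mll1+/+. The chaperone gene Ccs, which serves superoxide dismutase, had 13.2 and 8.95 RPKM against 16.3 and 19.1. Its log2 ratio in control cells, -1.05, was just past the limit, so its place past the rule rests on the scaling. In the libraries labelled Mll1-/- the log2 TNF ratio was 0.79 for Atox1 and 0.53 for Ccs. Ratios to the labelled Mll1-/- control trend with transcript length, and that trend was not removed from the values of these genes. The copper importer gene Slc31a1 had 24.2 and 26.5 RPKM against 26.1 and 25.9, and the exporter gene Atp7a, which loads secreted copper enzymes, 1.78 and 1.91 against 1.83 and 2.04. For TNF, 0 genes of these 7 groups passed the size rule in either genotype.

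**Figure D5:**
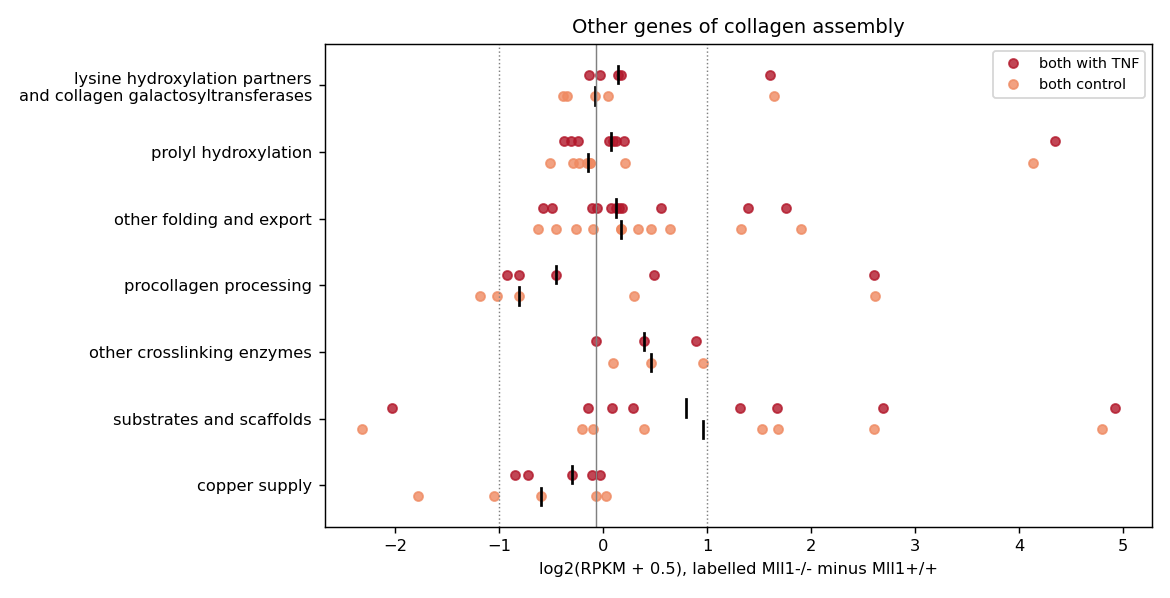
Difference in log2(RPKM + 0.5), labelled Mll1-/- minus Mll1+/+, of the measured genes of 7 lists, with both libraries given TNF (upper row of each list) or control solution (lower row). Each point is 1 gene, short black bars are list medians, the solid line is the median of all genes in control cells (-0.07) and dotted lines mark the size rule. The substrates have the highest medians (0.80 and 0.96) and procollagen processing the lowest (-0.45 and -0.81).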

How the data were processed

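The authors deposited RPKM values, 1 for each of 27344 RefSeq transcript entries in each of 4 libraries, with the unit taken from the name of the deposited table. The submitters' processing notes name TopHat and DESeq, with no version or role. Neither the genome build nor the read counter is given in the sources used here, so the only coordinates printed are those of reference sequences on GRCm38. The values are whole multiples of what 1 read is worth, within 0.0001 reads for all 27344 entries, which gave library totals, transcript lengths and reads. Totals and lengths were checked on simulated data. Counting intervals are exact binomial (Clopper-Pearson, 95%), or normal for the difference of responses, and cover counting error only.

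Entries were named through a RefSeq table made on GRCm38.p6 (20849) and GENCODE M21 (102), and 6393 stayed unnamed. Genes that reached 1 RPKM in any library were compared (14386, of them 11115 named, all 9 members included) on log2(RPKM + 0.5). Lists of collagen assembly genes name the 2 highest and the 2 lowest genes by the control ratio. Nfkbia and Ccl2 come from a short list of known TNF targets. The members and lists were chosen with earlier results of these data known. Python 3.11.15, pandas 2.3.3, numpy 2.4.6 and scipy 1.17.1 were used.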

Additional observations from a re-analysis of the deposited data

Results flagged for a closer look

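Of the 9 genes, 6 had TNF ratios on opposite sides of 0 in the genotypes, each on 1 library a group, and the difference was not tested. The log2 difference, labelled Mll1-/- minus Mll1+/+, was 0.45 for Loxl3, 0.40 for Tgm2, 0.38 for Serpinh1, 0.35 for Loxl1, 0.22 for Loxl2 and 0.12 for Plod3. Opposite signs were found for 52.1% of all 14386 genes. For Serpinh1 and Loxl3 both counting intervals left out a ratio of 1, with log2 TNF ratios of 0.23 and 0.32 in the libraries labelled Mll1-/- against -0.15 and -0.13 in Mll1+/+. For Tgm2 the Mll1+/+ value rests on 9 and 13 reads. For Plod3 the difference became -0.06 when the scaling leaves out the 20 most abundant genes.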

How the results depend on the processing

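The counts of the 9 genes past the size rule stayed within 1.5 times under the alternatives tried, except that a size rule of 0.58 gave 5 in place of 3 between the genotypes with TNF. With the 20 most abundant genes left out, which shifts the median of all genes by 0.28 in control cells, the genes past the rule were Lox, Loxl2 and Tgm2, all higher. Under 1 or more alternatives the TNF ratio of Lox, Plod1 or Plod3, or the difference of responses of Lox, Plod1, Plod2 or Plod3, changed sign, with values between -0.14 and 0.05. None of the log2 ratios past the rule changed sign. Over all genes, a rule of 0.58 gave 4938 and 3471 between the genotypes in control and TNF cells, 874 and 319 for TNF in labelled Mll1-/- and in Mll1+/+, and 1273 for the difference of responses. A pseudocount of 0.1 RPKM gave 223, 156 and 310 for the last 3, against 122, 83 and 170. With the length trend removed, TNF in labelled Mll1-/- split into 62 higher and 51 lower in place of 99 and 23, and the difference of responses into 37 and 148 in place of 109 and 61. No paired analysis was possible because each group is 1 library. Few reads limit the Mll1+/+ values of Tgm2, P4ha3 and Adamts2, which had 13 reads or fewer in each library.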
